A study of Mus musculus with 6 samples.

Results

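Transcripts of the Slc25 family of mitochondrial carriers were measured in microglia, the resident macrophages of the brain, that were sorted by their load of lipid droplets. Every gene whose symbol is Slc25a followed by a number was taken, with the exception of Slc25a1, which gave 44 of the 15912 genes listed. The cells came from the hippocampi of 3-month-old male C57BL/6 mice injected into the peritoneum with lipopolysaccharide (LPS, an inflammatory component of bacterial walls) at 1 mg/kg for 4 days and killed 24 h after the last dose. Each sample combined the hippocampi of 2 mice, from which about 10000 live CD11b+ CD45lo cells were sorted with BODIPY, which stains neutral lipids. The low and the high gate had 3 libraries each, numbered 1 to 3, of 34899413 to 39220494 reads, and all 6 come from LPS-treated animals, so every comparison is between gates under LPS. Values are normalized counts, which are gene counts divided by a size factor of the library. Saline-injected mice were not analysed here.

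Slc25 proteins sit mostly in the inner mitochondrial membrane and exchange small solutes between the cytosol and the matrix: nucleotides, phosphate, di- and tricarboxylates, amino acids, carnitine esters, cofactors and iron. They are encoded in the nucleus, imported through the outer membrane and inserted by a dedicated carrier translocase. In macrophages they link respiration, redox shuttles and fatty acid oxidation to metabolism in the cytosol. Since the libraries are of bulk RNA, fewer cells of a type and less RNA per cell cannot be told apart.

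No carrier passed the test between the gates with the gate as the only factor, and 1, Slc25a10, passed when libraries of equal number were compared as pairs, where 4.37% of all genes tested were higher and 0.462% lower. Of the 44 members, 39 had 10 or more normalized counts in 3 or more libraries and were tested, and 0 were higher and 0 lower in BODIPY-high cells at an adjusted p under 0.05 (limma on log2(normalized count + 1), Benjamini-Hochberg over 12767 genes), where 2.03% of all genes tested were higher and 0.0235% lower. At an unadjusted p under 0.05 with the gate as the only factor, 1 member was higher and 0 were lower, against 8.03% and 2.27% of all genes. That member was Slc25a10, the dicarboxylate carrier, which DESeq2 on reads recovered from the table also called, while edgeR called 0. With libraries compared as pairs, Slc25a10, Slc25a39, Slc25a4 and Slc25a44 were higher at an unadjusted p under 0.05 (limma, 0.00066, 0.022, 0.022 and 0.044). For the pairs, the share over all genes at that cutoff was not computed. Of the tested members, 18 had a positive and 21 a negative log2 change (22 negative with TMM scaling and 19 with upper-quartile scaling, other ways to even out library size). The median was -0.0017, beside -0.0043 for all genes tested. The 25th and 75th percentiles of the members were -0.10 and 0.16, beside -0.15 and 0.17 for all genes.

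The summed normalized count of the 44 genes was 67589, 71826 and 68534 in BODIPY-low libraries 1, 2 and 3 and 68553, 74341 and 67747 in BODIPY-high libraries 1, 2 and 3. The gates overlapped, and the highest sum was in library 2 of each gate. For 33 of the 39 tested members the 95% confidence interval of the change lay within 2-fold in either direction, and for 23 within 1.5-fold (84.6% and 59.0%, beside 72.5% and 49.9% of all genes tested). The 6 members whose interval reached beyond 2-fold were Slc25a10, Slc25a18, Slc25a24, Slc25a27, Slc25a31 and Slc25a42.

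**Figure D1:**
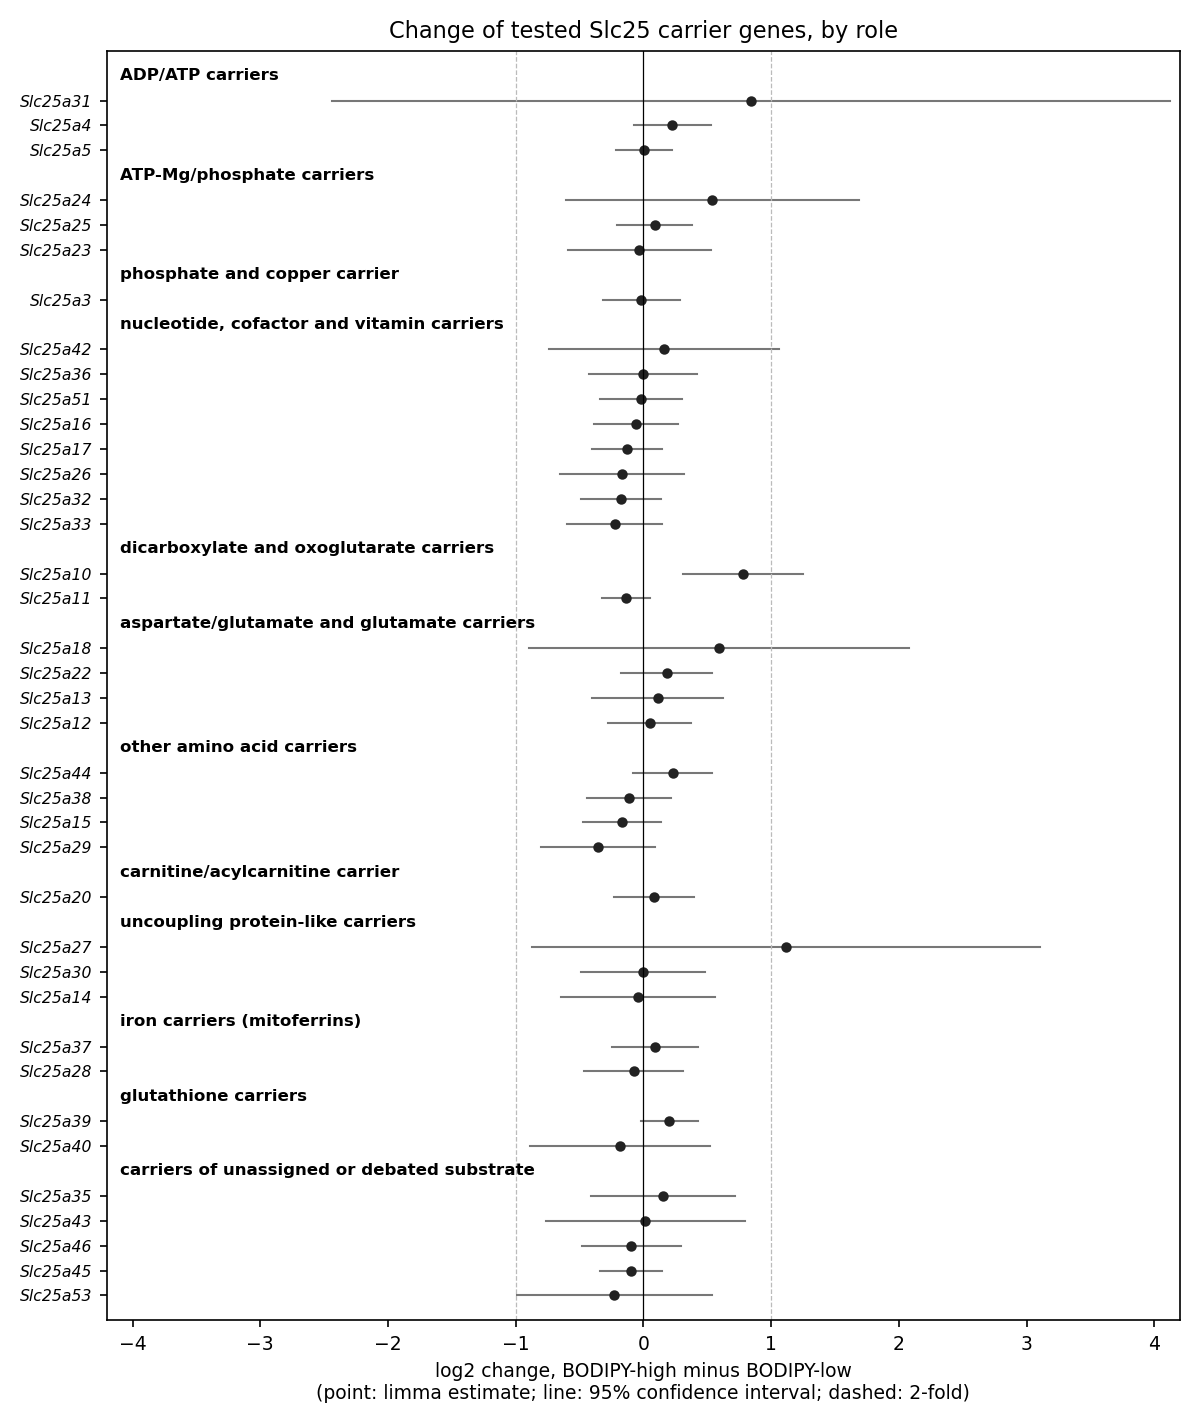
The log2 change of 38 of the 39 tested carriers (points, limma estimate on log2(normalized count + 1)) with its 95% confidence interval (lines), grouped by role, and dashed lines at 2-fold. The interval of Slc25a10 alone leaves out 0, 32 of the 38 stay inside the dashed lines, and the widest intervals belong to Slc25a31, Slc25a27 and Slc25a18.

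Levels per kb differed widely between carriers. Per kb of annotated exon, Slc25a5 had 12553 normalized counts on average over the 6 libraries, which was 46.2% of the summed level per kb of the 44 members. Slc25a11 followed with 2886, then Slc25a45 with 2537, Slc25a39 with 1569 and Slc25a4 with 1427 normalized counts per kb. Slc25a39 and Slc25a4 overlapped in this level between libraries, as did Slc25a11 and Slc25a45, whereas every library of Slc25a5 lay above every library of the rest. The median over the tested members was 138 normalized counts per kb, beside 158 for the 12267 tested genes with an exon length. In counts not scaled for length, 13 tested members had a mean of at least 1000 normalized counts, 21 of 100 to 1000 and 5 of under 100.

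**Figure D2:**
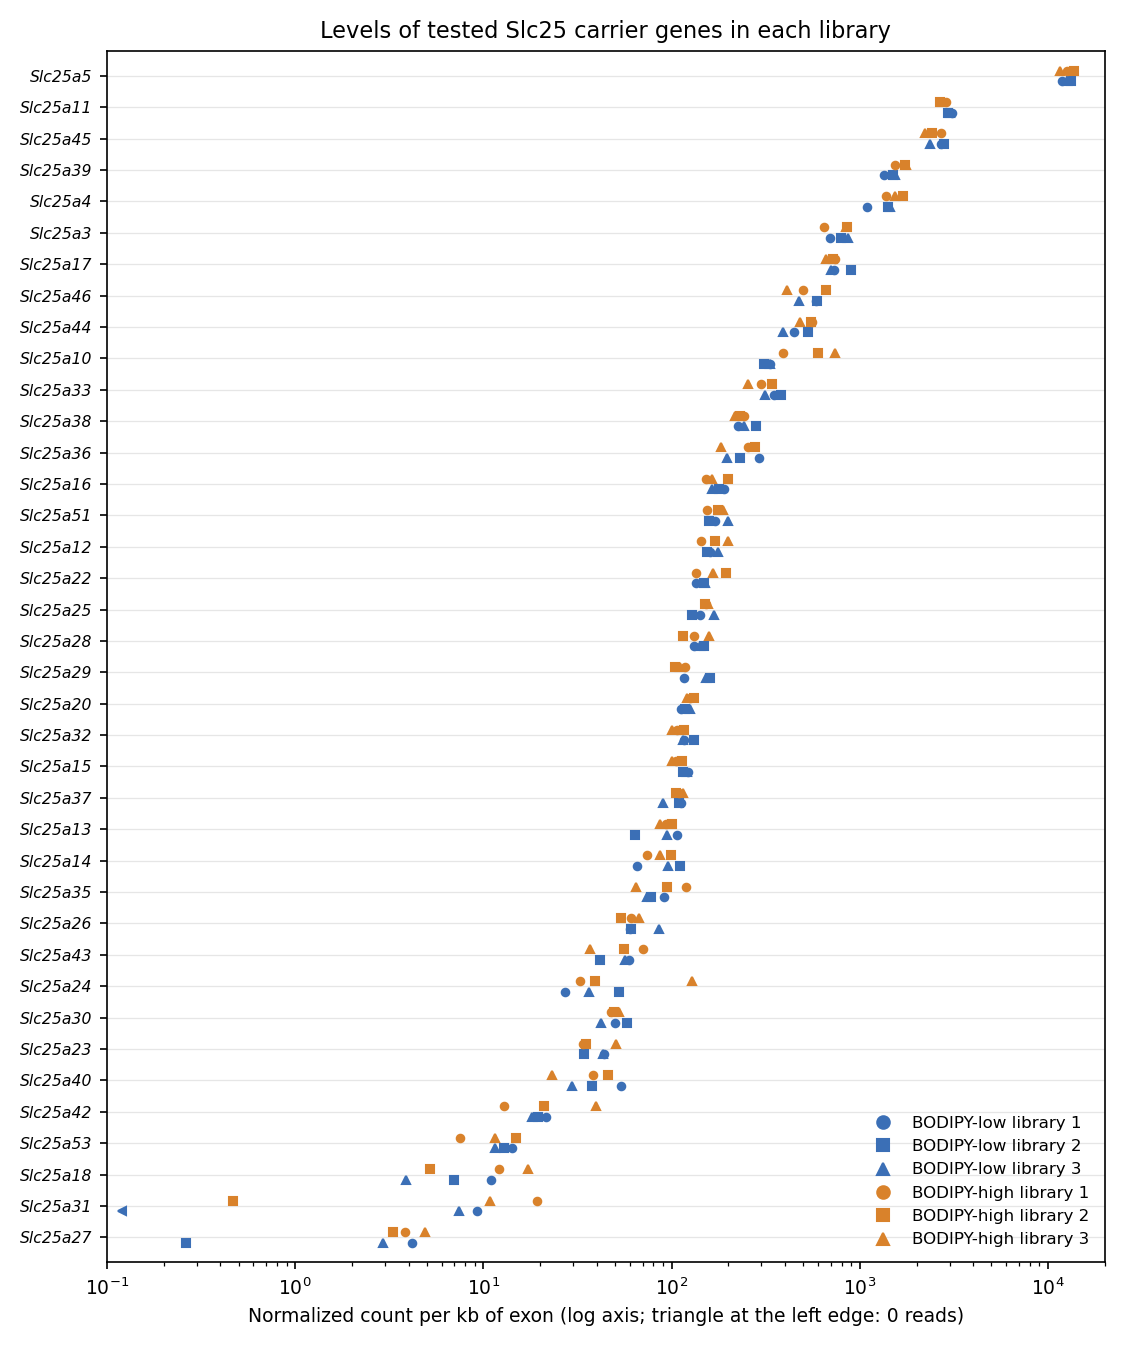
Normalized count per kb of exon of 38 of the 39 tested carriers in each library, on a log axis, with BODIPY-low libraries in blue and BODIPY-high libraries in orange and the marker shape giving the library number. Slc25a5 stands above all others, the colours overlap for nearly every gene, and Slc25a10 shows its 3 BODIPY-high libraries to the right of its BODIPY-low libraries.

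ADP/ATP carriers, which trade matrix ATP for cytosolic ADP, held the most abundant member. Slc25a5 (adenine nucleotide translocase 2, chromosome X, 36795651 to 36798807 on build GRCm38) had 19418, 21757 and 20670.0 normalized counts in BODIPY-low libraries 1, 2 and 3 and 20689, 22499 and 18937 in BODIPY-high libraries 1, 2 and 3. The gates covered the same range (log2 change 0.0045 ± 0.10, adjusted p = 0.994; SE, n = 3 per gate), and the 95% interval of the fold was 0.860 to 1.17. Slc25a4 (adenine nucleotide translocase 1, the form of heart and muscle, chromosome 8, 46206797 to 46211284) had 2577, 3338 and 3389 in the low gate and 3230.3, 3996 and 3621 in the high gate. It was higher in 3 of 3 pairs of equal number, but the gates overlapped and it did not pass (log2 change 0.23 ± 0.13, adjusted p = 0.658, and 0.184 with libraries compared as pairs, limma). Of the 39 tested members, 5 were higher and 4 lower in 3 of 3 pairs. The share over all genes was not computed, so these counts are not a result about the carriers. The germ cell form Slc25a31 was near the floor, at 18, 0 and 15 reads in BODIPY-low libraries and 41, 1 and 25 reads in BODIPY-high libraries, and was lowest in library 2 of each gate. The annotation lists 1 pseudogene named after Slc25a5, and copies under other names were not searched for. Reads shared with near-identical copies may not be assigned to Slc25a5 by the authors' counting.

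Slc25a4 made up 8.50, 9.69 and 10.3% of the summed level per kb of Slc25a4 and Slc25a5 in the low gate and 9.85, 11.1 and 11.8% in the high gate. The share was 9.49 ± 0.914% and 10.9 ± 0.985% (SD, n = 3 per gate). It was higher in BODIPY-high cells in 3 of 3 pairs, although the gates overlapped. The share itself was not tested.

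The phosphate carrier Slc25a3, which brings phosphate for ATP synthesis and copper for cytochrome oxidase into the matrix (chromosome 10, 91116574 to 91124059), had 3867, 4397 and 4807 normalized counts in the low gate and 3592, 4727 and 4663 in the high gate. Library 1 was lowest in each gate, and the gates overlapped (log2 change -0.015 ± 0.13, adjusted p = 0.989; 95% interval of the fold 0.803 to 1.22).

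Among the calcium-sensitive ATP-Mg/phosphate carriers, which adjust the matrix pool of adenine nucleotides, 0 of 3 tested members passed. Slc25a25 (chromosome 2, 32414487 to 32451445) was the most abundant per kb, with 1113, 1006 and 1312 normalized counts in the low gate and 1201, 1188 and 1233 in the high gate, and its libraries overlapped (log2 change 0.087 ± 0.13, adjusted p = 0.903). Slc25a24 had 93.3, 180.5 and 125 in the low gate and 111, 134 and 439.6 in the high gate. Its difference rested on BODIPY-high library 3, while the other 2 BODIPY-high libraries lay inside the range of the low gate (log2 change 0.54 ± 0.51, adjusted p = 0.828). Slc25a24 took 14.8, 17.3 and 38.2% of the summed level per kb of Slc25a23, Slc25a24 and Slc25a25 in BODIPY-high libraries 1, 2 and 3, beside 12.8, 24.5 and 14.8% in the low gate. Its mean share was 6.05 percentage points higher in the high gate with all libraries, and the difference was -1.33 without BODIPY-high library 3. The share of Slc25a23 was 18.0 ± 2.32% in BODIPY-low and 15.4 ± 0.287% in BODIPY-high libraries (SD, n = 3 per gate), without overlap, while its own count had a log2 change of -0.032 (adjusted p = 0.986, limma). Slc25a41, a form without the calcium-binding part, was not tested and had 7 reads over the low gate and 8 over the high gate.

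Among the members with a mean of at least 100 normalized counts, the dicarboxylate carrier gene Slc25a10 had the largest log2 change. Its protein exchanges malate and succinate for phosphate across the inner membrane (chromosome 11, 120491840 to 120499187, plus strand). The gene had 1152, 1064 and 1148 normalized counts in BODIPY-low libraries 1, 2 and 3 and 1350.4, 2060.0 and 2563 in BODIPY-high libraries 1, 2 and 3. The low gate varied by a coefficient of variation of 4.41% and the high gate by 30.6%, and every BODIPY-high library lay above every BODIPY-low library. The means were 1121 ± 49.4 and 1991 ± 609 (SD, n = 3 per gate), a ratio of 1.78. Within pairs of equal number the ratios were 1.17, 1.94 and 2.23.

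Slc25a10 did not pass the test over all genes (log2 change 0.78 ± 0.21, adjusted p = 0.137; limma), and the 95% interval of its fold was 1.24 to 2.38. With the library number as a block, which compares gates within pairs of equal number, it passed (adjusted p = 0.0219, limma) as the 1 member called higher, with 0 called lower. It also passed with DESeq2 on recovered reads (adjusted p = 0.00426) and, in limma, without BODIPY-high library 1 (log2 change 1.04, adjusted p = 0.0222). It did not pass edgeR (adjusted p = 0.116). Of its annotated exon bases, 6.60% overlap Gm11788 on the opposite strand, and the library kits do not keep strand, so reads there cannot be assigned to either gene.

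Slc25a11, the oxoglutarate/malate carrier of the malate-aspartate shuttle (chromosome 11, 70644196 to 70647479), had 6577, 6224 and 6415 in the low gate and 6113, 5641 and 5742 in the high gate. Every BODIPY-high library was below every BODIPY-low library, by little (log2 change -0.14 ± 0.083, adjusted p = 0.676; 95% interval of the fold 0.799 to 1.04). Of the annotated exon bases of Slc25a11, 8.92% overlap Rnf167 on the opposite strand, and reads there cannot be assigned to either gene. Slc25a21, the oxodicarboxylate carrier, had 0 reads from BODIPY-low and 9 from BODIPY-high cells and was not tested.

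Of the 39 tested members, 1 had no overlap between gates with the high gate above (Slc25a10) and 2 with the high gate below (Slc25a11 and Slc25a15). These are 2.56% and 5.13% of the members, beside 10.4% and 5.95% of all genes tested.

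Markers of some other cells differed between the same libraries. All 10 markers of border-associated macrophages (the macrophages of meninges and vessels) were tested and 8 rose in limma (10 with the block, 6 in edgeR and 10 in DESeq2). None was at 0 in either gate, and their summed normalized count ran from 2606 to 7596 in the low gate and from 22714 to 84246 in the high gate, highest in BODIPY-high library 3. All 10 markers of the choroid plexus epithelium rose in limma (8 in edgeR and 9 in DESeq2), with none at 0 in either gate, and their sum was 306 to 2266 in the low gate and 39481 to 51865 in the high gate. Of the 10 microglia markers, all detected, 3 had no overlap between gates with the high gate below, beside 5.95% of all genes tested. Log2 changes of these markers were negative in 10 of 10 under each scaling, with a median of -0.26. Their sum was 2414887 to 2820876 in the low gate and 1874127 to 2571039 in the high gate, lowest in BODIPY-high library 3, and 0 passed limma or edgeR (1 lower at an unadjusted p under 0.05, 1 called by DESeq2 and 1, Olfml3, with the block). Slc25a10 and the border-associated macrophage sum were both highest in BODIPY-high library 3 and lowest in BODIPY-low library 2. In BODIPY-low libraries 1 and 3 the Slc25a10 counts were close (1152 and 1148), and the border-associated macrophage sums were 3352 and 7596. The part of these cells in the Slc25a10 values was not tested.

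**Figure D3:**
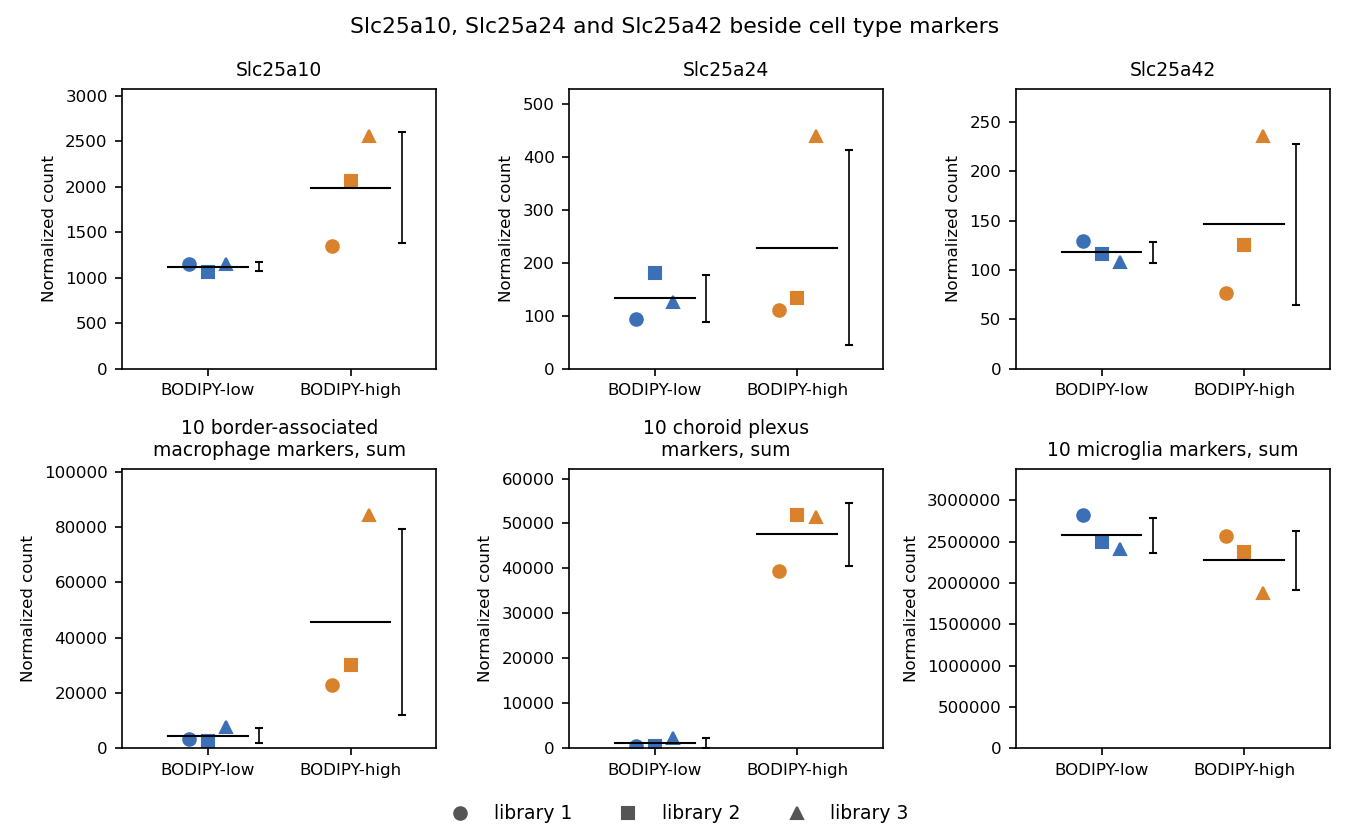
Normalized counts of Slc25a10, Slc25a24 and Slc25a42 (top) and of the sums of 10 markers each of border-associated macrophages, choroid plexus and microglia (bottom) in the 6 libraries. Horizontal lines are means and bars the SD over 3 libraries. BODIPY-high library 3 (orange triangle) is highest for the 3 carriers and for the border-associated macrophage sum, and lowest for the microglia sum.

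Carriers of aspartate and glutamate, which move reducing equivalents and nitrogen, had positive log2 changes in 4 of 4 tested members, as had 6284 of all 12767 genes tested, and 0 passed limma, edgeR or DESeq2 (0 at an unadjusted p under 0.05). The sign rested on 1 library for 2 of them, since Slc25a12 was at -0.070 without BODIPY-high library 3 and Slc25a13 at -0.10 without BODIPY-low library 2. Slc25a12 (aralar, chromosome 2, 71271063 to 71367749) had 1178, 1132 and 1300.4 in the low gate and 1053, 1244 and 1464 in the high gate, which overlapped (log2 change 0.048 ± 0.14, adjusted p = 0.959). Slc25a13 (citrin, chromosome 6, 6041218 to 6217173) had 407, 243 and 357 in the low gate and 353, 382 and 331 in the high gate, with the wider spread in the low gate (log2 change 0.11 ± 0.23, adjusted p = 0.932). Slc25a12 held 60.0, 70.6 and 65.3% of the summed level per kb of both genes in the low gate and 60.7, 62.8 and 69.6% in the high gate, so aralar was the more abundant transcript in every library. The glutamate carrier Slc25a22 had a log2 change of 0.18 (adjusted p = 0.804, limma). The astrocytic glutamate carrier Slc25a18 had 7.37 to 33.1 normalized counts over the 6 libraries. It was highest in BODIPY-high library 3 (adjusted p = 0.860, limma). Of 8 tested astrocyte markers 4 rose in limma (6 with the block), and the summed level of the 10 on the list, none at 0 in a gate, ran from 10924 to 11912 in the low gate and from 12801 to 14625 in the high gate, lowest in library 3 of each. Their part in the Slc25a18 values was not tested.

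Of the carriers of other amino acids, 0 of 4 tested passed limma, edgeR or DESeq2, and 0 had an unadjusted p under 0.05 with the gate as the only factor. Slc25a44, a carrier of branched-chain amino acids (chromosome 3, 88410498 to 88425139), had 1594, 1899 and 1392 in the low gate and 2003, 1960.3 and 1729 in the high gate. It was higher in 3 of 3 pairs, and BODIPY-high library 3 lay inside the low range (log2 change 0.23 ± 0.14, adjusted p = 0.658). With the block its unadjusted p was 0.044 and its adjusted p 0.263 (limma). Slc25a29, a carrier of basic amino acids (chromosome 12, 108825873 to 108835883), had the lowest log2 change of the tested members. Its values were 304, 417 and 396 in the low gate and 306, 270.2 and 289 in the high gate, where BODIPY-low library 1 lay within the high range (log2 change -0.36 ± 0.20, adjusted p = 0.620). The ornithine carrier Slc25a15 had 686, 649 and 678 in the low gate and 591, 641 and 562 in the high gate, lower in every BODIPY-high library, and did not pass (adjusted p = 0.784, limma). Slc25a38, the glycine carrier that feeds heme synthesis, had a log2 change of -0.11 (adjusted p = 0.881). The other ornithine carrier, Slc25a2, had 19 reads over the low gate and 4 over the high gate and was not tested.

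The carnitine/acylcarnitine carrier Slc25a20, the route by which long-chain fatty acids enter the matrix for beta-oxidation (chromosome 9, 108662088 to 108684641), had 539.8, 571 and 609.6 in the low gate and 603, 635 and 584 in the high gate. The gates overlapped, with the low gate spread over the wider range (log2 change 0.083 ± 0.14, adjusted p = 0.914). The 95% interval of its fold was 0.851 to 1.32, which leaves out a change of 1.5-fold in either direction.

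The mitoferrins, which carry iron for heme and iron-sulfur clusters, had intervals within 1.5-fold. Slc25a28 (mitoferrin 2, chromosome 19, 43663801 to 43674881) had 495, 560.0 and 533 in the low gate and 490.5, 432 and 595 in the high gate (log2 change -0.076 ± 0.17, adjusted p = 0.940). Slc25a37 (mitoferrin 1, the erythroid form, chromosome 14, 69241848 to 69285112) had 673, 660.0 and 539 in the low gate and 663, 634 and 689.7 in the high gate (log2 change 0.092 ± 0.15, adjusted p = 0.910). Both genes overlapped between gates, and Slc25a28 held 52.2 to 61.3% of their summed level per kb over the 6 libraries. Of the erythroid markers 3 were listed, none at 0 in a gate, and their sum ran from 25.2 to 139 in the low gate and from 639.6 to 1758 in the high gate (1 of 2 tested rose in limma, both with the block). Slc25a37 itself was 1.06 times as high in the high gate as in the low gate, and the part of such cells in it was not tested.

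**Figure D4:**
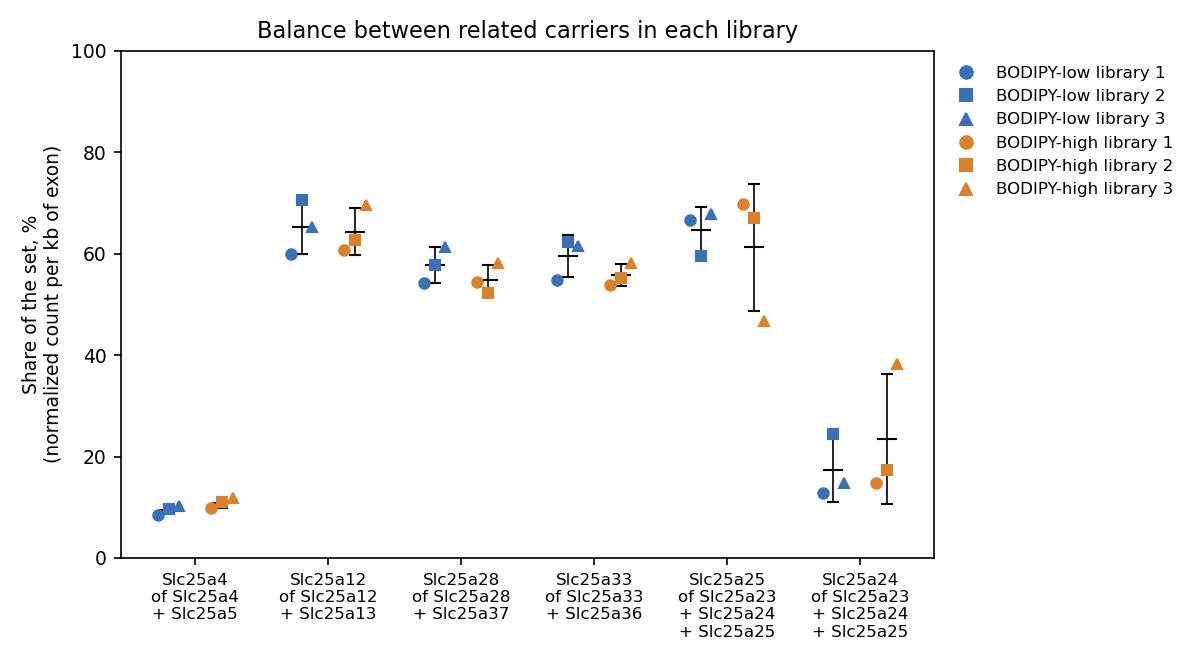
Share of 1 carrier in the summed normalized count per kb of exon of closely related carriers, in each library, with the mean and SD over 3 libraries per gate (black). The gates overlap for each of the 6 shares shown, and the Slc25a24 share is highest, and the Slc25a25 share lowest, in BODIPY-high library 3. The shares of Slc25a22, Slc25a39 and Slc25a23 are not shown, and that of Slc25a23 had no overlap between gates.

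Glutathione carriers import the main thiol antioxidant of the matrix. Slc25a39 (chromosome 11, 102402985 to 102407946) had 3713, 4111 and 4240.1 in the low gate and 4232, 4796 and 4858 in the high gate. It was higher in 3 of 3 pairs by a near-constant 1.14, 1.17 and 1.15 times, but BODIPY-high library 1 lay just under BODIPY-low library 3 and it did not pass (log2 change 0.20 ± 0.10, adjusted p = 0.553; adjusted p = 0.184 with the block). Its relative Slc25a40 was far less abundant, with means of 338 ± 103 and 300.1 ± 96.9 (SD, n = 3 per gate). Slc25a39 held 96.2 to 98.7% of the summed level per kb of both.

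Carriers of nucleotides, cofactors and vitamins were 9 tested genes, of which 0 passed limma, edgeR or DESeq2 and 0 had an unadjusted p under 0.05. Their log2 changes were small and negative in 8 of 9 (7 with upper-quartile scaling), from -0.23 for Slc25a33 to 0.16 for Slc25a42, with a median of -0.055. The pyrimidine nucleotide carrier Slc25a33 (chromosome 4, 149744036 to 149774277) had 663, 715 and 592 in the low gate and 564, 645 and 482 in the high gate. It was lower in 3 of 3 pairs with overlapping gates (log2 change -0.23 ± 0.16, adjusted p = 0.748), and 14.9% of its exon bases overlap Gm13068 on the opposite strand. Slc25a17, which serves peroxisomes (chromosome 15, 81318911 to 81360812), was the most abundant of the group per kb, with 2080.2, 2546 and 2009 normalized counts in the low gate and 2109, 2058 and 1882 in the high gate (log2 change -0.13 ± 0.12, adjusted p = 0.832). The folate and flavin carrier Slc25a32 was lower in 3 of 3 pairs (adjusted p = 0.781, limma). Slc25a16, Slc25a26 (S-adenosylmethionine), Slc25a36 (pyrimidine nucleotides) and Slc25a51 (NAD) had log2 changes of -0.17 to -0.0017.

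Slc25a42, the carrier of coenzyme A, had 129, 117 and 108 in the low gate and 77.1, 126 and 236 in the high gate, so its BODIPY-high libraries spanned the whole low range. Like Slc25a24 it was highest in BODIPY-high library 3, which also held the highest sums of border-associated macrophage, oligodendrocyte (14366 over 8 markers, beside 8183 and 8382 in the other 2) and neutrophil markers (74409 over 7, beside 17596 and 18596). In the low gate the oligodendrocyte sum ran from 7175 to 7269 and the neutrophil sum from 11415 to 49576, highest in library 3. BODIPY-high library 3 was also highest for the erythroid sum (1758, beside 639.6 and 851). The sum of 7 monocyte markers was highest there too (3673, beside 1578 and 2210, and 1235 to 2324 in the low gate). The sum of 8 endothelial markers was instead lowest there (1479, beside 2258 and 2123, and 1623 to 2692 in the low gate). All 8 endothelial markers were tested and 0 passed limma. No marker of these lists was at 0 in a gate. Of 6 tested monocyte markers 0 passed limma (2 higher and 0 lower at an unadjusted p under 0.05, 1 with the block). Of the oligodendrocyte markers 1 of 6 tested rose in limma (2 with the block), and of the neutrophil markers 0 of 7 (3 higher and 0 lower at an unadjusted p under 0.05, 2 with the block, 0 with edgeR and 1 with DESeq2). The part of these cells in the Slc25a24 and Slc25a42 values was not tested.

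Of the carriers related to uncoupling proteins, 0 of 3 tested passed limma, edgeR or DESeq2 (0 at an unadjusted p under 0.05). Slc25a14 (chromosome X, 48623413 to 48662294) had 155, 262 and 225 in the low gate and 174, 234 and 205 in the high gate, with library 1 lowest in each (log2 change -0.042 ± 0.26, adjusted p = 0.984). Slc25a30 had a fold of 0.992 between gate means. Slc25a27, a form of neurons, was near the floor at 15, 1 and 11 reads in BODIPY-low libraries and 15, 13 and 21 reads in BODIPY-high libraries. Its fitted log2 change of 1.12 ± 0.88 (SE, adjusted p = 0.777, limma), the highest of the tested members, rested on BODIPY-low library 2, which held 1 read. Without that library it was 0.16. Of 7 neuronal markers in the table, Syt1 and Gad1 were at 0 in the low gate and none in the high gate, and their sum ran from 17.9 to 72.2 in the low gate and from 67.8 to 106 in the high gate. Of these 3 were tested and 0 passed limma, edgeR or DESeq2 (1 higher and 0 lower at an unadjusted p under 0.05). Their part in the Slc25a27 values was not tested.

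Among carriers of unassigned or debated substrate, 0 of 5 tested passed limma, edgeR or DESeq2 (0 at an unadjusted p under 0.05). Slc25a45 (chromosome 19, 5877808 to 5885878) was the third most abundant member per kb, with 7463, 7728 and 6522 normalized counts in the low gate and 7483, 6697 and 6147 in the high gate. Library 3 was lowest in each gate and the gates overlapped (log2 change -0.10 ± 0.11, adjusted p = 0.861). Slc25a53 (chromosome X, 136981116 to 137038302) had 113, 102 and 91.6 in the low gate and 60.1, 119 and 92.0 in the high gate (log2 change -0.23 ± 0.34, adjusted p = 0.902). Slc25a46, an outer membrane protein that affects mitochondrial shape, and Slc25a43 had folds of 0.950 and 1.03. Slc25a35 had a fold of 1.14, and 31.3% of its exon bases overlap Rangrf on the opposite strand. Slc25a47 had 22 reads over the low gate and 31 over the high gate, and Slc25a34 had 0 and 5, and neither was tested.

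In the genome the 44 genes lie on 17 chromosomes, with 5 on chromosome 11 and 4 on X. Within 50 kb of one another are Slc25a43 and Slc25a5 on X (18.4 kb apart), Slc25a41 and Slc25a23 on 17 (2.06 kb) and Slc25a29 and Slc25a47 on 12 (0.162 kb). These neighbours differed widely in level per kb: 12553 normalized counts for Slc25a5 and 53.4 for Slc25a43, 40.0 for Slc25a23 and 1.90 for Slc25a41, and 127 for Slc25a29 and 2.95 for Slc25a47.

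Of the family members that carry other names, 3 were tested and 0 passed limma, edgeR or DESeq2 (0 at an unadjusted p under 0.05). The uncoupling protein gene Ucp2 had means of 17499 ± 2285 and 18604 ± 3357 normalized counts (SD, n = 3 per gate; adjusted p = 0.920, limma). Mtch1 and Mtch2, carrier relatives of the outer membrane, had log2 changes of 0.094 and -0.085 (adjusted p = 0.872 and 0.901). Ucp1 and Ucp3 had 0 and 3 reads over the low gate and 6 and 21 over the high gate and were not tested.

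The machinery that imports carriers had 0 of 15 tested genes past limma, edgeR or DESeq2, and 0 at an unadjusted p under 0.05. Log2 changes were negative in 12 of 15 (11 with upper-quartile scaling), with a median of -0.19, beside -0.0043 for all genes and -0.26 for the 10 microglia markers, whose part in these values was not tested. Timm10, a chaperone of the space between the membranes that hands carriers to the translocase, had 269.9, 308 and 351 in the low gate and 235, 224 and 223 in the high gate. Its gates did not overlap (high gate below, as for 5.95% of all genes tested), and it did not pass (log2 change -0.43 ± 0.20, adjusted p = 0.506). Tomm22, a receptor of the outer membrane, had means of 1544 ± 104 and 1335 ± 187 (adjusted p = 0.667, limma). No overlap between gates, in either direction, was seen for 2 of the 15, beside 10.4% above and 5.95% below of all genes tested. The 15 genes summed to 13020, 13846 and 14112 normalized counts in the low gate and 12762, 12834 and 12742 in the high gate. These sums did not overlap between gates and were not tested.

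Other transporters of the mitochondrial membranes had 0 of 19 tested genes past limma, edgeR or DESeq2, 0 at an unadjusted p under 0.05, and a median log2 change of 0.050. The smallest p were those of the sideroflexin gene Sfxn5, at 14.3, 13.4 and 17.9 normalized counts in the low gate and 26.0, 33.9 and 27.6 in the high gate (log2 change 0.90 ± 0.47, adjusted p = 0.594), and of the pyruvate carrier subunit gene Mpc2 (log2 change -0.34, adjusted p = 0.644). Of 12 genes taken as measures of mitochondrial content, 0 passed limma, edgeR or DESeq2, and 1 was higher and 0 lower at an unadjusted p under 0.05. Log2 changes were positive in 9 of the 12 (3 negative with TMM and with upper-quartile scaling), with a median of 0.067. The summed normalized count of the 12 ran from 79739 to 84961 in the low gate and from 86035 to 93778 in the high gate. This sum was not tested. No overlap between gates with the high gate above was seen for 2 of the 12, beside 10.4% of all genes tested. The matrix chaperone gene Hspd1 had 2938, 3601 and 3435 in the low gate and 3787, 3959 and 4000.4 in the high gate (log2 change 0.24 ± 0.10, adjusted p = 0.465) and the ATP synthase subunit gene Atp5b means of 20699 ± 945 and 22974 ± 1073 (adjusted p = 0.654, limma), both without overlap between gates.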

How the data were processed

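Each library was prepared, per the labels' protocols, with the SmartSeq v4 and Nextera XT kits, which do not keep strand. Per the submitters' processing notes and design text, the authors used FastQC 0.11.4, aligned reads with STAR 2.5.3a to mm10 (the notes also list mm9), counted them per gene with STAR and used DESeq2. Their gene annotation is not given in the sources used here. Each deposited signal value is, per gene, the authors' count over a size factor of the library. All values were whole multiples of 1 step per library (tolerance 0.05 of a read), which recovers 34899413 to 39220494 reads per library. A count of 0 allows up to 3 reads, worth 2.76 to 3.29 normalized counts, for counting error only.

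All 15912 rows entered, including 23 names turned into dates. The test was limma-trend (limma 3.58.1, R 4.3.3), with gate as its sole factor and two-sided p, run on log2(normalized count + 1) for genes with at least 10 normalized counts in at least 3 of 6 libraries. Standard errors are SE of the log2 change, and every adjusted p of a gene is limma's unless another tool is named. All p, SE and intervals come from the fit with the gate alone, unless the block, pairs or another tool is named. Alternatives were pseudocounts of 0.5 and 5, no filter, a minimum of 50, other scalings, edgeR 4.0.16 and DESeq2 1.42.0 on recovered reads, a replicate block and leaving out each library. Programs were tested on simulated data. Libraries of equal number deviated together (0.35, 0.24 and 0.36 across genes, against -0.26 to -0.10 for unequal numbers, correlations of deviations from the gate means). The numbers were therefore read as pairs in the block and in the pair ratios, but the main test does not use the pairing. Deviations within a gate sum to 0, so the negative values follow from the positive ones and are not separate evidence. The labels do not say that libraries of a gate are separate pools, and p-values therefore cover only the spread among these 6, which may be technical.

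Members and lists were chosen with earlier results of these data known. Values in every library are given for members with an unadjusted p under 0.05, the 3 of largest change each way, the most abundant per kb of each role and 10 fixed carriers, and Slc25a24, Slc25a42 and Slc25a15 were added after their values were seen. Of the other lists the 2 genes of smallest p are named. The values of 1 tested member are not reported here, and it is counted in the summaries. Exon lengths and coordinates are those of GENCODE M21 (GRCm38, the build called mm10), in which all 44 symbols were found. Lengths count all annotated exons, so levels per kb are approximate. Of the 44 members, 14 share exon bases with another gene, and 2 share over 10% of them.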

Additional observations from a re-analysis of the deposited data

How the results depend on the processing

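The number of carriers called higher was 0 in limma and 1, Slc25a10, with the replicate block and with DESeq2, and 0 to 1 when 1 library was left out (1 without BODIPY-high library 1). The number called lower was 0 under every alternative run. The block changed no other call of a carrier. Slc25a10 kept a log2 change of 0.57 to 1.04, with adjusted p of 0.00426 to 0.404 over all alternatives. Over all genes, 259 were higher and 3 lower. With the block the counts were 558 and 59, with DESeq2 464 and 32, with a minimum of 50 131 and 1, and edgeR called 1 lower. With 1 library left out they were 15 to 271 higher (lowest without BODIPY-high library 2) and 0 to 2 lower (2 without BODIPY-low library 3). The median change of the members was -0.032 to 0.032 with 1 library left out. Slc25a5 turned to -0.0053 with edgeR and -0.0074 with TMM scaling. With 1 library left out, changes that were not called crossed 0: Slc25a3 -0.10 to 0.11, Slc25a5 -0.057 to 0.067, Slc25a12 -0.070 to 0.17, Slc25a13 -0.10 to 0.27, Slc25a14 -0.26 to 0.12, Slc25a25 -0.0011 to 0.19, Slc25a28 -0.20 to 0.032, Slc25a31 -0.56 to 2.17, Slc25a37 -0.0097 to 0.15 and Slc25a53 -0.45 to 0.036. The cause of these shifts was not tested. The 5 carriers not tested were under the count minimum, and Slc25a18, Slc25a27 and Slc25a31, with means under 100 normalized counts, had intervals beyond 2-fold. No setting varied depth.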

Other observations

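The place of each library within its gate was compared between gates for the 39 tested members. Lowest in library 3 of both gates were 9 members (Slc25a17, Slc25a32, Slc25a33, Slc25a35, Slc25a36, Slc25a40, Slc25a44, Slc25a45 and Slc25a46), which is 23.1% of the members beside 18.4% of all genes tested. Highest in library 3 of both gates were 5 members, or 12.8% beside 21.1%. Lowest in library 1 of both gates were 6 members, among them the phosphate carrier gene Slc25a3 and the ADP/ATP carrier gene Slc25a4, or 15.4% beside 18.3%, and highest there were 4, or 10.3% beside 16.4%. Lowest in library 2 of both gates were 4 members, or 10.3% beside 11.8%, and highest there were 6, or 15.4% beside 11.4%. The members' shares lay above those of all genes in 2 of these 6 comparisons and below in the other 4. These differences were not tested.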
